A study of Mus musculus with 3 samples.

Results

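Molecular chaperones are proteins that bind unfolded or newly made polypeptides and help them reach their folded form. The chaperone genes described here were taken by symbol from the gene list of the count tables: the subunits of the cytosolic chaperonin CCT (Cct genes and Tcp1), the prefoldins (Pfdn), all genes beginning with Hsp apart from Hspg2 and Hspbap1, and the J-proteins (Dnaja, Dnajb and Dnajc). The rule gave 87 of 27998 genes and used no measured value. They were described in 3 populations that were sorted from C57BL/6J mouse bone marrow and each loaded, at about 3000 cells, as 1 droplet library with the 10x Chromium 3-prime v2 chemistry. LMPP, lymphoid-primed multipotent progenitors, carried cKit, Sca1 and Flt3 and lacked IL7Ra and B220. CLP, common lymphoid progenitors, carried cKit, Sca1 and IL7Ra with or without Flt3 and lacked B220. Pro-B cells, the early B lineage stage, carried cKit, IL7Ra and B220 and lacked Sca1 and Flt3. The labels give no treatment, age or number of animals for these populations, and the cultured cells that they also describe were not analysed here.

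The Hsp70 proteins bind short stretches of unfolded chain in a cycle driven by ATP. J-proteins bring clients to Hsp70 and start that cycle, and nucleotide exchange factors end it. Hsp90 acts later on signalling proteins and receptors, and CCT, fed by prefoldin, folds actin and tubulin inside a closed chamber. Hsp60 with its lid Hsp10 forms a folding chamber in mitochondria, while separate Hsp70, Hsp90 and J-protein members serve the endoplasmic reticulum. Growing lymphoid cells are known to use these families for the proteins they make as they divide.

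The cells kept numbered 579 for LMPP, 948 for CLP and 1106 for pro-B. They held 4014657, 5967352 and 7367156 UMIs (unique molecular identifiers, which tell captured transcripts apart), with medians of 5687.5 to 6789 UMIs per cell. Levels are in CPM, a gene's UMIs scaled to its library's total, where 50 CPM is 201, 298 and 368 UMIs in LMPP, CLP and pro-B. The 3-prime chemistry counts 1 tag per transcript, so levels were not divided by gene length. No population had a replicate library, no test was made, and a difference between populations cannot be told apart from a difference between droplet runs. Intervals in brackets are exact 95% intervals that cover counting error only: Poisson for a level and Clopper-Pearson for a share or a ratio. The libraries shared 1 to 3 barcodes. Many marker genes followed the labels, but not all did. Cd79a went from 1.49 CPM in LMPP through 92.2 in CLP to 1851 in the pro-B library. Il7r was lowest in LMPP (3.74 CPM) and stood at 141 in CLP and 104 in pro-B. Flt3 was lowest in pro-B (5.16 CPM), while LMPP (279) and CLP (300.5) lay close together. Kit did not follow the pro-B label, which includes cKit: LMPP had 85.2 CPM, CLP 28.3 and pro-B 7.47. Cd34, Ly6a, Meis1 and Hlf, listed for LMPP, were each highest there. Ly6d and Notch1, listed for CLP, were highest in CLP, but Ebf1 and Rag1 of that list were highest in pro-B. The erythroid list summed to 6.97, 1.84 and 23.9 CPM, highest in pro-B and mostly the globin gene Hbb-bs there, at 17.4 CPM, with Gata1 and Car1 at 0 in every library. The 4 T cell markers summed to at most 0.747 CPM. Genes of plasmacytoid dendritic cells summed to 275, 765 and 74.8 CPM, and those of neutrophils and monocytes to 390, 83.8 and 0.407 CPM, with Elane at 0. The NK and innate lymphoid list summed to 154, 231 and 8.55 CPM, most of it Nkg7, and the stromal and endothelial list to 60.3, 99.5 and 38.0 CPM, nearly all Pecam1, with Cxcl12 at 0. The megakaryocyte list summed to 21.9 CPM or less, the mature B and plasma list to 37.7 CPM or less and the mast cell and basophil list to 3.02 CPM or less. The part of such cells in the chaperone values was not tested apart from the counts given without them in the closing section.

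In these populations the chaperone genes together took 0.823% of all UMIs in LMPP (0.814 to 0.832), 0.799% in CLP (0.792 to 0.806) and 1.02% in the pro-B library (1.01 to 1.03). Their summed level in CLP was 0.970 times that in LMPP (0.957 to 0.984), and in pro-B it was 1.27 times that in CLP (1.26 to 1.29). The pro-B library was therefore higher as a share of all UMIs, and LMPP and CLP lay close together. Ribosomal protein genes took 43.5%, 41.9% and 29.6% of UMIs in LMPP, CLP and pro-B. When ribosomal and mitochondrially encoded genes were left out of the library total, the summed pro-B level was 1.03 times that in CLP. That scaling lowers each log2 ratio of pro-B over CLP by the same amount, a shift of -0.31, and the shifts of the other ratios are -0.34 (pro-B over LMPP) and -0.03 (CLP over LMPP).

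At least 1 UMI was found for 76 of the 87 genes, and 38 reached 50 CPM in some library. The 11 genes with no UMI in any library were the Hsp70 relatives Hspa1l and Hspa12a, the small heat shock genes Hspb2, Hspb3 and Hspb7, Cct8l1, Dnajb7, Dnajb8, Dnajc5b, Dnajc5g and Dnajc22. A library's floor of 3 UMIs was 0.747, 0.503 and 0.407 CPM, in the order LMPP, CLP and pro-B. A gene was called different when its CPM differed at least 2-fold between libraries and reached 50 CPM in the higher one. None of the 33 chaperone genes at that level was called for CLP over LMPP, where 4.71% of the 2570 genes tested were higher and 2.72% lower. For pro-B over CLP, 7 of 38 were higher, against 20.8% of 3002 genes, and 1 was lower, against 9.86%. The higher count is near the background and is no result about chaperones. For pro-B over LMPP the counts were 7 higher of 36, against 21.5% of 2995 genes, and 1 lower, against 10.1%. Those higher were Dnajb11, Dnajc7, Dnajc8, Dnajc9, Dnajc21, Hspa14 and Pfdn4. Both pro-B comparisons rest on the same pro-B library. With ribosomal and mitochondrial genes left out of the total, Dnajc21, Dnajb11 and Pfdn4 were the 3 higher for pro-B over CLP, against 12.3% of all genes, and Dnajc1 and Hspbp1 the 2 lower, against 14.4%. The share of higher genes among all calls moved from 67.9% to 46.1%.

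The same genes led the family in each library. Hsp90ab1 and Hspa8 led in each and together gave 36.3%, 35.9% and 29.3% of chaperone UMIs in LMPP, CLP and pro-B. Pfdn5, Hspe1 and Hsp90aa1 completed the top 5 in every library, with 55.5%, 54.1% and 47.5% of chaperone UMIs. Among the 36 members with a mean of 50 CPM or more over the libraries, the median log2 ratio of CLP over LMPP was -0.02 and that of pro-B over CLP was 0.50. The same medians over all 2445 genes at that mean were 0.00 and 0.28. Of the 36 members, 30 were higher and 6 lower in pro-B than in CLP, and 63.2% of the 2445 genes were higher.

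**Figure D1:**
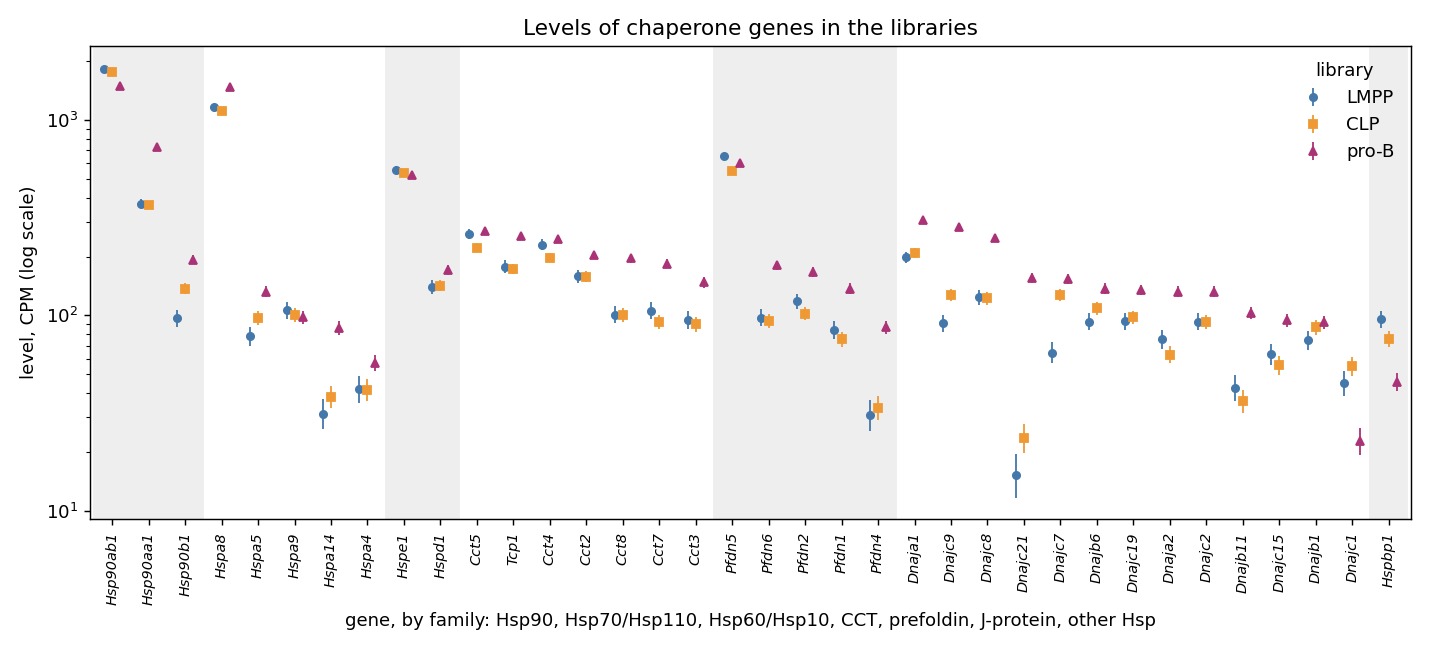
Level in CPM (log scale) of the 36 chaperone genes named by level or call in the LMPP, CLP and pro-B libraries, grouped by family with shaded bands; bars are exact 95% Poisson intervals. Hsp90ab1 and Hspa8 lie above 1000 CPM in each library, and Dnajc21 spans 15.2 to 156 CPM.

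The cytosolic Hsp90 genes differed in direction. Hsp90ab1, the constitutive form, was at 1820 CPM in LMPP, 1757 in CLP and 1500 in the pro-B library. Hsp90aa1, the inducible form, was at 373 CPM in LMPP (355 to 393), 366 in CLP (350 to 381) and 729 in the pro-B library (710 to 749). Over all cells LMPP and CLP overlapped for Hsp90aa1 and pro-B stood above both, while in cells low in cycle gene UMIs, described at the end, pro-B was lowest at 249 CPM and its log2 ratio over CLP was -0.33. The log2 ratio of pro-B over CLP was 0.996 for Hsp90aa1 (0.92 to 1.07), just short of the 2-fold call, and -0.23 for Hsp90ab1 (-0.27 to -0.19). The number of Hsp90ab1 UMIs per Hsp90aa1 UMI was 4.87 in LMPP (4.61 to 5.16), 4.81 in CLP (4.59 to 5.04) and 2.06 in the pro-B library (1.99 to 2.13). That ratio lies within 1 library and does not depend on the scaling, but it does depend on the cells counted. In cells low in cycle gene UMIs, Hsp90ab1 and Hsp90aa1 had 4941 and 939 UMIs in LMPP and 6279 and 1128 in CLP. In pro-B they had 861 and 221 there. Hsp90b1, the Hsp90 of the endoplasmic reticulum, stood at 96.6, 137 and 193 CPM, and its 3 intervals did not overlap. In cells low in cycle gene UMIs its log2 ratio of pro-B over CLP was 0.20 (-0.12 to 0.51). Its reads share a strand with the gene model Gm15344, so part of its count could belong there.

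Among the Hsp70 genes, Hspa8, the constitutive cytosolic member, was at 1168, 1114 and 1482 CPM across LMPP, CLP and pro-B, a log2 ratio of 0.41 for pro-B over CLP (0.37 to 0.46). Hspa14, which works at the ribosome, was at 31.4, 38.4 and 86.3 CPM. Over all cells it was called higher in pro-B, with a log2 ratio of 1.17 over CLP (0.95 to 1.39). In cells low in cycle gene UMIs, described at the end, that call was lost, and the ratio was 0.52 (-0.02 to 1.04). Hspa14 lies at chr2:3504527-3512790 on the minus strand of GRCm38, where the annotation holds a second model of the same name. Its J-protein partner Dnajc2 was at 92.9, 92.8 and 132 CPM. The number of Dnajc2 UMIs per Hspa14 UMI was 2.96, 2.42 and 1.53 across LMPP, CLP and pro-B. Hspa4, an Hsp110 exchange factor, was at 41.8, 41.6 and 57.0 CPM. Hspa9, the mitochondrial Hsp70, was at 106, 101 and 97.7 CPM with overlapping intervals. Hspa1a and Hspa1b, the strongly heat-inducible pair, gave 1, 9 and 14 UMIs and 5, 1 and 2 UMIs in LMPP, CLP and pro-B, that is 1.90 CPM or less. These near-identical neighbours on chromosome 17 cannot be separated with certainty by counting, and at this depth no difference could be read from them.

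The list of cytosolic and heat-inducible genes had 12 members. It was not purely either, since it held the constitutive Hspa8 and the mitochondrial Hspe1. Of the 12, 6 reached 50 CPM and none was called in pro-B over CLP or CLP over LMPP. Of all genes, 20.8% were higher and 9.86% lower in pro-B over CLP, and 4.71% and 2.72% in CLP over LMPP. Dnajb1, a heat-inducible J-protein, was at 74.5, 86.8 and 92.2 CPM. The heat shock factors were low, with Hsf1 at 18.4, 14.2 and 18.1 CPM and Hsf2 at 7.72, 8.21 and 3.67 CPM. The immediate early genes, which cell handling is known to induce, summed to 1984, 1493 and 773 CPM, with Fos at 368, 194 and 21.0 CPM. Jund, at 315, 302 and 406 CPM, went the other way and gave most of the pro-B sum. Their part in the chaperone levels was not tested.

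Hspd1 and Hspe1 encode Hsp60 and Hsp10 and are transcribed in opposite directions from 1 shared region of chromosome 1. Hspd1 was at 139, 142 and 171 CPM and Hspe1 at 556, 536 and 521 CPM across LMPP, CLP and pro-B. Their sum was 0.976 times as high in CLP as in LMPP (0.930 to 1.02) and 1.02 times as high in pro-B as in CLP (0.978 to 1.06), so no difference in the sum was detectable at this depth. Part of this region is shown because it holds the heat shock element, the site of Hsf1. The search was for TTC, 2 free bases, GAA, 2 free bases and TTC on both strands in the 250 bases before each RefSeq start. Of the 87 chaperone genes 71 had a RefSeq promoter (GRCm38.p6, 92 windows), and the motif was found for Hspd1, Hspe1 and Dnajb6, against 0.466% of the 32851 windows in the genome. The stretch before Hspe1, at chr1:55088053-55088082 on the plus strand, has 2 overlapping matches, and that before Dnajb6, at chr5:29735843-29735872 on the plus strand, has 1. The matches for Hspd1 are the same sites as those for Hspe1. They lie before the RefSeq start of Hspd1 at 55087932 but inside the gene as read from its start at 55088243. The Dnajb6 match likewise lies before RefSeq starts at 29735898 and 29735979 but inside the gene in the GENCODE annotation, which starts at 29735688. Capitals mark the motif.
Hspe1: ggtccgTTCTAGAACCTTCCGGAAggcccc
Dnajb6: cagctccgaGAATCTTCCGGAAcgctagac
The 3 genes with this motif were at log2 ratios of 0.26, -0.04 and 0.34 in pro-B over CLP, in the order Hspd1, Hspe1 and Dnajb6, and none was called. A match is a description of letters and not a measured site.

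All 7 CCT subunits at 50 CPM or more had higher levels in the pro-B library than in CLP, and none passed 2-fold. Among the 2445 genes with a mean of 50 CPM or more, 63.2% also had a pro-B level above their CLP level. The 2-fold call for pro-B over CLP was met upward by 20.8% of 3002 genes. The summed CCT level was 1130 CPM in LMPP, 1035 in CLP and 1506 in the pro-B library. CLP stood at 0.916 times LMPP (0.882 to 0.952), and pro-B at 1.46 times CLP (1.41 to 1.50). Cct5 was at 261, 222 and 272 CPM and Cct4 at 230, 198 and 247 CPM, each with the CLP library lowest. Tcp1, the alpha subunit, was at 178, 173 and 256 CPM, and Cct2 was at 158, 158 and 204 CPM. The 3 subunits with the lowest levels in LMPP and CLP had the highest ratios. Cct8 was at 101, 101 and 196 CPM, Cct7 at 106, 92.5 and 184 CPM, and Cct3 at 94.9, 89.8 and 147 CPM. Their log2 ratios of pro-B over CLP were 0.96, 0.99 and 0.71, against 0.29 for Cct5 and 0.32 for Cct4. Over all cells the span from the lowest to the highest subunit narrowed from 2.75-fold in LMPP and 2.47-fold in CLP to 1.84-fold in pro-B. In cells low in cycle gene UMIs, described at the end, subunits ran from 85.5 to 226 CPM in CLP and from 131 to 309 CPM in pro-B. There the log2 ratios of pro-B over CLP were 0.98 for Cct7, 0.74 for Cct8, 0.61 for Cct3 and 0.56 for Cct4. Those of Cct5, Cct2 and Tcp1 were 0.39, 0.33 and 0.23. The CCT ring itself holds its subunits in equal numbers. With the total taken without ribosomal and mitochondrial genes, Cct5 was level between pro-B and CLP (-0.02) and Cct4 nearly so (0.01), while Cct7 kept 0.68. Cct6b, a testis form, was at 1.01 CPM or less, and the gene Cct6a was not analysed here.

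Prefoldin, the co-chaperone that hands actin and tubulin to CCT, also summed highest in pro-B and lowest in CLP. The 5 Pfdn genes summed to 982 CPM in LMPP, 853 in CLP and 1176 in the pro-B library. With the total taken without ribosomal and mitochondrial genes, the log2 ratio of the pro-B sum was 0.15 over CLP and -0.08 over LMPP. Pfdn5 gave most of the sum, at 652, 548 and 605 CPM, and over all cells was highest in LMPP. In cells low in cycle gene UMIs, described at the end, it was highest in pro-B, at 869 CPM against 696 in LMPP and 574 in CLP. With equal weight per cell its pro-B level also lay above that in LMPP. Its reads share a strand with Myg1. The other 4 were highest in pro-B: Pfdn6 at 97.4, 94.0 and 180 CPM, Pfdn2 at 118, 102 and 167 CPM, Pfdn1 at 83.9, 75.2 and 137 CPM and Pfdn4 at 30.9, 33.7 and 87.0 CPM. Only Pfdn4 (chr2:170496428-170519123, plus strand) passed the call, with log2 ratios of 1.37 over CLP (1.14 to 1.60) and 1.49 over LMPP (1.21 to 1.78). The number of Pfdn5 UMIs per Pfdn4 UMI was 21.1, 16.3 and 6.95 in LMPP, CLP and pro-B. Of the 7 listed partners of CCT and prefoldin, 6 reached 50 CPM and 2 were called higher in pro-B over CLP, against 20.8% of all genes. They were Vbp1, a prefoldin subunit without a Pfdn symbol, at 66.5, 51.4 and 139 CPM, and Uxt, a prefoldin-like subunit, at 25.9, 23.8 and 58.9 CPM. Pdrg1, another prefoldin-like subunit, was at 139, 132 and 132 CPM, and Uri1 was lower in pro-B at 57.0, 62.7 and 42.4 CPM.

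**Figure D2:**
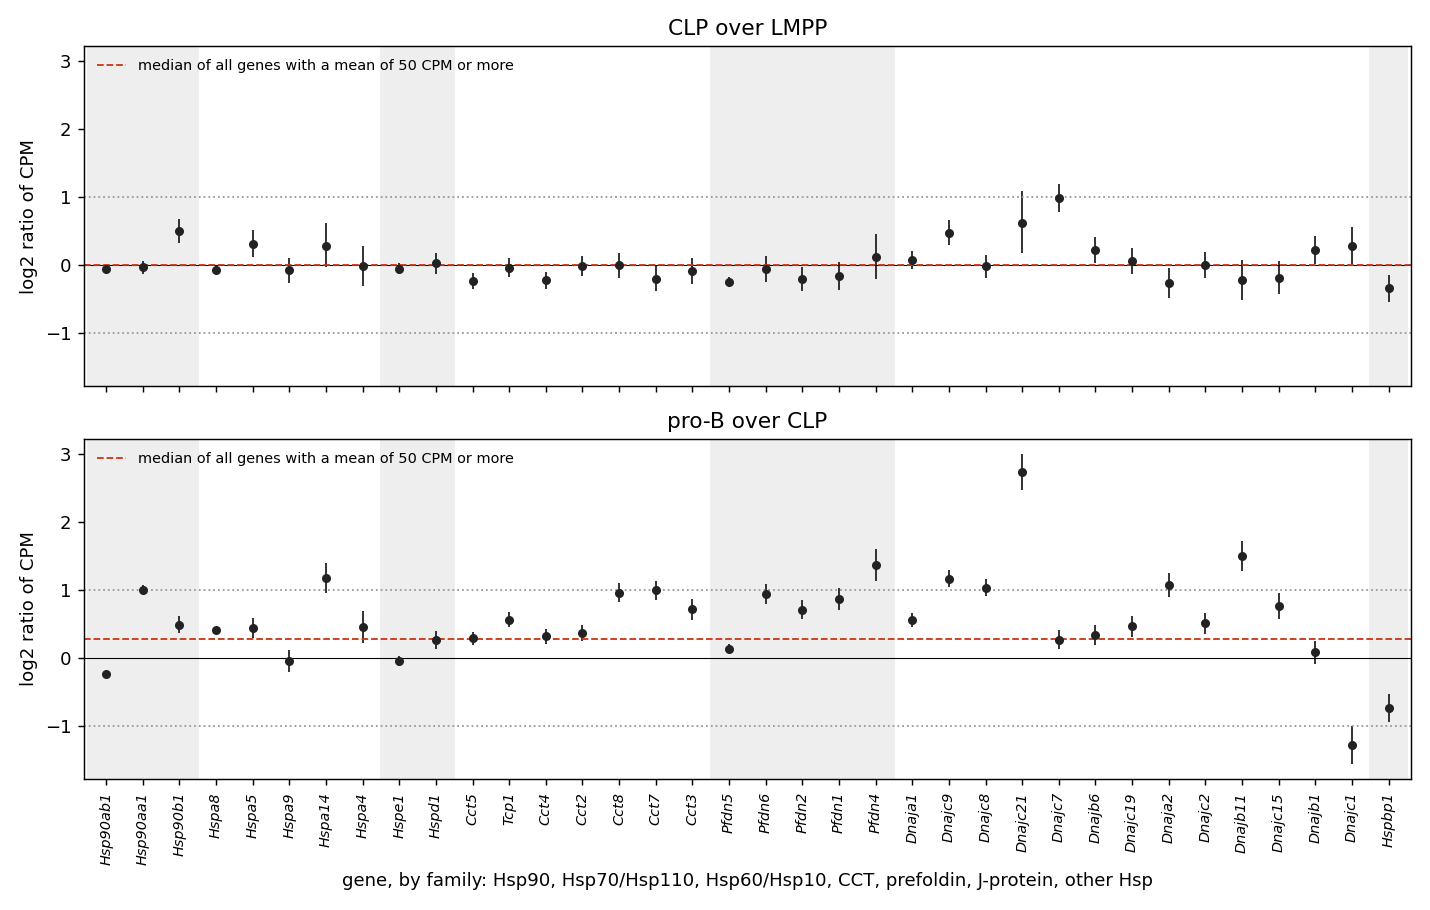
Log2 ratio of CPM for CLP over LMPP (top) and pro-B over CLP (bottom) for the 36 named chaperone genes by family; bars are exact 95% intervals, dotted lines mark 2-fold and the dashed line the median of 2445 genes. All CLP over LMPP points lie within 2-fold, and in pro-B over CLP Dnajc21 stands highest at 2.73 and Dnajc1 lowest at -1.27.

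The J-proteins, with 45 genes the largest family, differed most among themselves. Dnajc21, which assists the recycling of factors that mature the large ribosomal subunit, was at 15.2 CPM in LMPP (11.6 to 19.5), 23.5 in CLP (19.7 to 27.7) and 156 in the pro-B library (147 to 165). It was the only chaperone gene called at 4-fold, with a log2 ratio of 2.73 over CLP (2.47 to 2.99), against 6.06% of all genes higher and 3.93% lower by that much. For pro-B over LMPP it was again the only one higher, at 3.36, against 7.78% of all genes, and for CLP over LMPP none was called at 4-fold, against 1.36% higher and 0.895% lower. The gene lies at chr15:10446756-10470516 on the minus strand. After thinning each cell to 2000 UMIs, 2.44% of LMPP, 4.07% of CLP and 23.0% of pro-B cells held a Dnajc21 UMI, and unthinned 9.67%, 12.4% and 51.1% did. These genes are expressed in all 3 populations, so no population gives a background for free RNA in the droplets. The 5 pro-B cells with most Dnajc21 held 4.45% of its UMIs there, so the level was spread over many cells.

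Of the J-proteins with nuclear roles, Dnajc9, a histone chaperone that works with newly made H3 and H4, was at 91.2 CPM in LMPP (82.1 to 101), 127 in CLP (118 to 136) and 284 in the pro-B library (272 to 297). The 3 intervals did not overlap, and the log2 ratio of pro-B over CLP was 1.17 (1.05 to 1.29). In cells low in cycle gene UMIs the call was lost, and the ratio was -0.28 (-0.68 to 0.10). Dnajc8, a factor associated with the spliceosome, was at 124, 122 and 250 CPM, a log2 ratio of 1.03 (0.91 to 1.16). Dnajc9 thus differed between LMPP and CLP too, whereas Dnajc8 did so by -0.02 only. Among cytosolic J-proteins, Dnaja2 was called higher in pro-B over CLP at 75.2, 63.0 and 132 CPM, and Dnaja1 was not, at 198, 209 and 308 CPM. Dnajb6, which holds back aggregation, was at 92.9, 109 and 137 CPM.

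Dnajc7, a co-chaperone that binds both Hsp70 and Hsp90 through its TPR repeats, had another pattern, and over all cells its larger step was between LMPP and CLP. It was at 64.5 CPM in LMPP (56.9 to 72.9), 127 in CLP (118 to 137) and 154 in the pro-B library (145 to 163). The log2 ratio of CLP over LMPP was 0.98 (0.78 to 1.19), the highest of any chaperone gene at 50 CPM in that comparison and just short of the call. Leaving out cells called as doublets took it past the call, at 1.02. For pro-B over CLP it was 0.27 (0.14 to 0.41), or -0.04 with ribosomal and mitochondrial genes left out of the total. In cells low in cycle gene UMIs, described at the end, the larger step was from CLP to pro-B, at 1.31, against 0.89 for CLP over LMPP.

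In the endoplasmic reticulum set, members went in both directions. Hspa5 (BiP), the Hsp70 of the compartment, was at 78.2, 97.4 and 132 CPM across LMPP, CLP and pro-B. Dnajb11, a J-protein partner of Hspa5, was at 42.3 CPM in LMPP (36.2 to 49.2), 36.4 in CLP (31.7 to 41.5) and 103 in the pro-B library (95.4 to 110.2), and its log2 ratio of pro-B over CLP was 1.50 (1.28 to 1.72). Dnajc1, a membrane J-protein of the same compartment, was at 44.8 CPM in LMPP (38.5 to 51.9), 54.8 in CLP (49.0 to 61.1) and 22.7 in the pro-B library (19.4 to 26.4). It was the only chaperone gene called lower in pro-B over CLP, at -1.27 (-1.55 to -1.0). Dnajc3, an inhibitor of the stress kinase PERK, was at 47.1, 57.6 and 48.1 CPM and is named only for its promoter. Of the 12 chaperone genes listed for the compartment, 5 reached 50 CPM. In pro-B over CLP 1 was called higher, against 20.8% of all genes, and 1 lower, against 9.86%. Of 20 other folding and stress genes there, 10 reached that level. Only Sdf2l1, a Dnajb11 partner, was called higher in pro-B over CLP, against 20.8% of all genes, at 38.4, 46.1 and 125 CPM. Herpud1, a degradation factor of the compartment, was at 42.3, 81.6 and 150 CPM, a ratio called in pro-B over LMPP at a log2 of 1.82. Calr and Pdia3, abundant folding factors, were at 149, 159 and 243 CPM and at 134, 133 and 201 CPM.

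The promoters of this set are shown because 3 of its genes hold the endoplasmic reticulum stress element, searched for as CCAAT, 9 free bases and CCACG on both strands of the 250 bases before each RefSeq start. The motif was present in 0.113% of the 32851 windows of GRCm38.p6 and in the windows of Hspa5, Hsp90b1 and Dnajc3 among the chaperone genes. The stretches lie at chr2:34772019-34772048 (Hspa5, plus strand), chr10:86705510-86705694 (Hsp90b1, minus strand) and chr14:118937682-118937931 (Dnajc3, plus strand), from RefSeq. The Hspa5 match lies before the RefSeq start at 34772090 but inside the gene in the GENCODE annotation, which starts at 34771970. Capitals mark each match, and Hsp90b1 has 2, the second in the reverse direction.
Hspa5: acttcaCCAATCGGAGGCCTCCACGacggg
Hsp90b1: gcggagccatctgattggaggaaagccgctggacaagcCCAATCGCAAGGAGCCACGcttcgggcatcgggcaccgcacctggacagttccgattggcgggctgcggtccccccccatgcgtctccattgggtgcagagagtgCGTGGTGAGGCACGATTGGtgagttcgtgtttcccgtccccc
Dnajc3: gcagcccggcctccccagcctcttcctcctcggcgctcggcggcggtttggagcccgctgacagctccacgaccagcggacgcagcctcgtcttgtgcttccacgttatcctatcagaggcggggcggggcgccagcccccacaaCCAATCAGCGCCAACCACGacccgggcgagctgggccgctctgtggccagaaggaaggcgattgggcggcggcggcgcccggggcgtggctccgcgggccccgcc
The 3 genes with the motif did not share 1 pattern: the log2 ratios of pro-B over LMPP were 0.76 for Hspa5 and 0.997 for Hsp90b1, and Dnajc3 went from 47.1 to 48.1 CPM. Dnajb11 had the highest ratio in the set without a match in its window, which says only that these letters are not there.

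Lower in pro-B was also Hspbp1, an exchange factor of Hsp70 that stands alone in the list. It was at 95.6 CPM in LMPP (86.3 to 105.7), 75.6 in CLP (68.8 to 82.9) and 45.6 in the pro-B library (40.9 to 50.8), and was called for pro-B over LMPP at -1.07 (-1.28 to -0.85). The remaining J-proteins reached at most 63.8 CPM. Outside the rule for named genes and picked after their values were seen, Dnajb2, a J-protein with ubiquitin-binding motifs, was at 15.2, 16.1 and 2.85 CPM. Dnajb14, a J-protein of the endoplasmic reticulum membrane, was at 22.2, 19.1 and 6.11 CPM. No small heat shock gene reached 50 CPM: the 8 summed to 37.1, 24.6 and 40.4 CPM, most of it Hspb11, which despite its symbol is a component of cilia, at 35.9, 23.0 and 31.9 CPM. Hspb6 was at 5.43 CPM in the pro-B library and at 1.34 CPM or less in the others. Hspb1, the common inducible small heat shock protein, gave 1, 2 and 0 UMIs.

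Among the 22 listed cochaperones of Hsp70 and Hsp90, 15 reached 50 CPM. None was called for CLP over LMPP, where 4.71% of all genes were higher and 2.72% lower. In pro-B over CLP 2 were called higher, against 20.8% of all genes, and 1 lower, against 9.86%. Tomm34, a cytosolic link to mitochondrial import, was among those higher, at 41.6, 37.5 and 75.2 CPM. Fkbp5, the glucocorticoid-induced immunophilin of Hsp90, was the 1 lower at 54.1, 61.0 and 24.6 CPM, a log2 ratio of -1.31 (-1.58 to -1.05). Its relative Fkbp4 was at 171, 148 and 259 CPM, and Stip1, which bridges Hsp70 and Hsp90, was at 46.8, 55.3 and 103 CPM, called in pro-B over LMPP. Cdc37, which loads kinases onto Hsp90, was at 177, 156 and 211 CPM, Ptges3 (p23) at 134, 140 and 193 CPM and St13, an Hsp70-binding protein, at 176, 187 and 218 CPM. Among 6 mitochondrial folding partners, 2 reached 50 CPM and 1 was called higher in pro-B over CLP, against 20.8% of all genes. It was Grpel1, the exchange factor of Hspa9, at 77.0, 72.2 and 149 CPM, while Hspa9 itself was level over all cells. The other mitochondrial members, Dnajc19 and Dnajc15 of the import motor, were at 93.4, 97.5 and 135 CPM and at 63.0, 55.5 and 94.3 CPM.

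Chaperone content also varied between cells of 1 library. Among cells thinned to 2000 UMIs, the summed chaperone UMIs had medians of 16 in LMPP, 15 in CLP and 19 in the pro-B library. The 10th and 90th percentiles were 10 and 22 in LMPP, 10 and 22 in CLP, and 12 and 27 in the pro-B library. The ratio of variance to mean was 1.33, 1.39 and 1.72, where counting error by itself gives 1. Pro-B cells were thus the most spread, and their range of 4 to 42 overlapped those of LMPP, 3 to 30, and CLP, 4 to 32. Hsp90ab1 had a UMI in 95.3% of thinned LMPP cells (93.2 to 96.9), 93.7% of CLP cells (91.9 to 95.2) and 86.0% of pro-B cells (83.8 to 88.0), and in 100%, 98.6% and 94.5% unthinned. Hspe1 followed the same order at 64.4%, 62.6% and 47.5% of thinned cells, and 92.4%, 85.3% and 71.6% unthinned. For Dnajc7 the ratio of variance to mean was 1.10, 1.33 and 2.02. Its detection went from 12.9% through 19.1% to 29.3% of thinned cells, and from 34.4% through 45.4% to 57.8% unthinned.

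**Figure D3:**
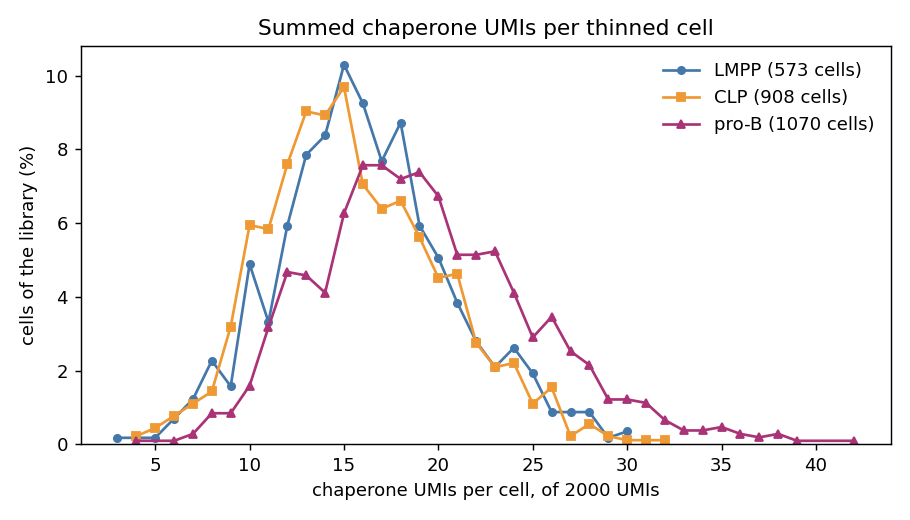
Percentage of cells of each library (vertical axis) by summed chaperone UMIs per cell after thinning to 2000 UMIs (horizontal axis), for 573 LMPP, 908 CLP and 1070 pro-B cells. The LMPP and CLP curves overlie each other around 15 to 16 UMIs and the pro-B curve extends to 42.

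The libraries differed in how many cells were dividing, and this was read within each library. Genes of S phase summed to 859, 1049 and 2671 CPM across LMPP, CLP and pro-B, and genes of G2 and mitosis to 216, 325 and 3940 CPM. In each library, thinned cells with 3 or more S phase UMIs were set against cells with none. These classes are ranges of a count, not cell types. In pro-B they held 585 and 146 cells, with 238 cells at 2 or 3 UMIs near the cut, and their median depths were 8160 and 3322.5 UMIs. In LMPP they held 108 and 202 cells at 8304 and 6119 UMIs, and in CLP 249 and 269 cells at 7468 and 6105 UMIs. The depth moves with the class, and its part in the differences was not tested. Ribosomal protein genes took nearly equal shares of both pro-B classes, with a ratio of 1.05.

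Dnajc9 had the highest ratio of the S phase class to the other in every library, among the named genes with 50 CPM. Its level was 128 CPM in S phase cells against 53.4 in the others in LMPP, 196 against 90.1 in CLP, and 350 against 109 in pro-B. The ratios were 2.41 (1.76 to 3.30), 2.18 (1.80 to 2.66) and 3.20 (2.50 to 4.18). Hsp90aa1 was next in pro-B, at 856 against 321 CPM, and stood at 484 against 283 CPM in LMPP and 483 against 273 in CLP. The pair Hspd1 and Hspe1, with the shared promoter above, were both higher in the S phase class of pro-B: Hspd1 was at 192 against 73.3 CPM and Hspe1 at 592 against 312 CPM. Hspa9 was at 111 against 42.6 CPM there. In CLP, Hsp90b1 was at 193 against 104 CPM, whereas its LMPP ratio had an interval including 1.

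Other members were lower in the S phase class of pro-B. Dnajc7 was at 117 against 254 CPM, a ratio of 0.460 (0.383 to 0.554), and Pfdn5 at 545 against 834 CPM, a ratio of 0.653 (0.593 to 0.720). Cct4 was at 227 against 321 CPM and Pfdn4 at 81.9 against 121 CPM. The CCT sum was 1505 against 1501 CPM, a ratio of 1.0 (0.935 to 1.08), and Hspa8 was at 1503 against 1554 CPM. Split by genes of G2 and mitosis, pro-B gave the same directions for Hsp90aa1, at 835 against 371 CPM, for Dnajc9, at 327 against 147 CPM, and for Dnajc7, at 115 against 299 CPM. Pfdn5 and Cct4 were again lower, at ratios of 0.682 and 0.832, but Pfdn4 was not, at 91.3 against 80.9 CPM, a ratio of 1.13 (0.853 to 1.52). That split, of 564 and 182 cells at 8278 and 3195 UMIs, draws on the same library. Split in this way, CLP gave 53 and 686 cells, with Hsp90aa1 and Dnajc9 again higher at ratios of 1.67 and 1.95. Dnajc7 went the other way in CLP than in pro-B, at 184 against 125 CPM, a ratio of 1.47 (1.14 to 1.87). Its S phase ratios in LMPP and CLP, 0.819 and 1.12, had intervals including 1. CLP cells with and without a UMI of Ebf1, the B lineage factor, differed little: all chaperone genes summed to 7840 CPM in 374 cells with one and to 8105 CPM in 534 cells without.

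**Figure D4:**
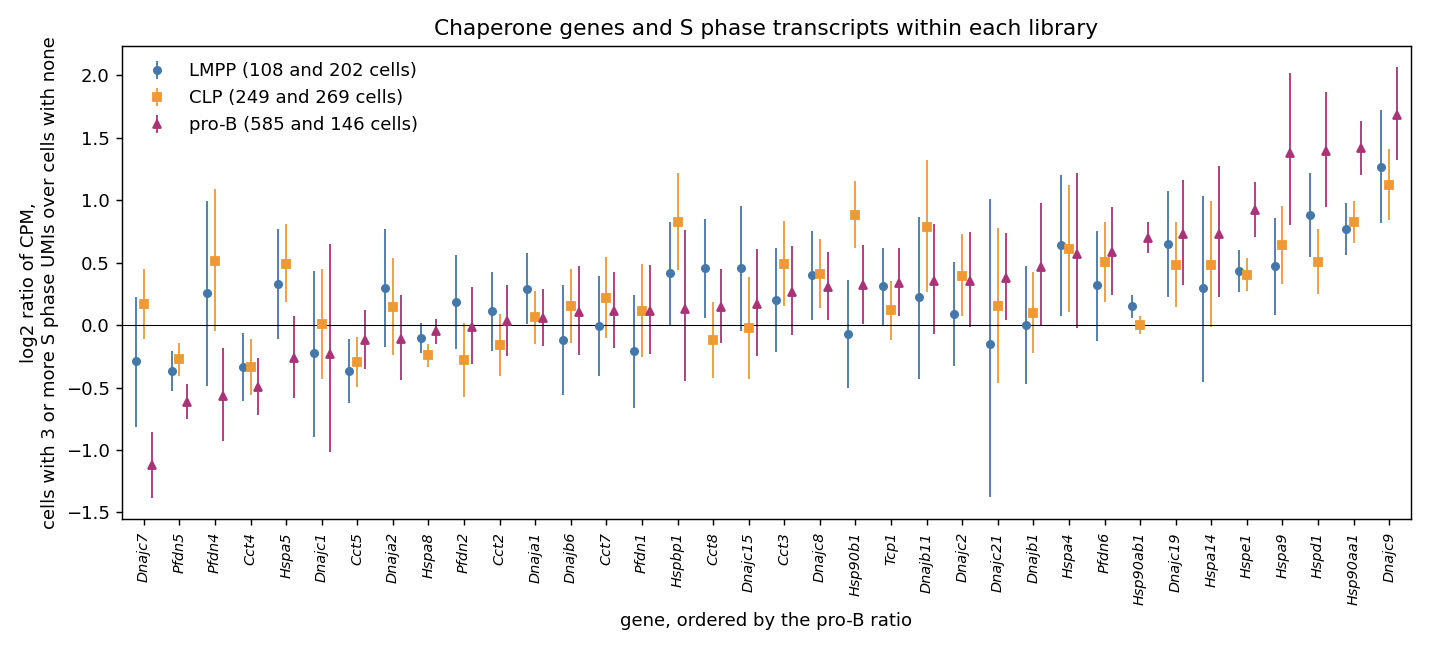
Log2 ratio of CPM between thinned cells with 3 or more S phase UMIs and cells with none, within LMPP, CLP and pro-B, for the named chaperone genes ordered by the pro-B ratio; bars are exact 95% intervals for counting error. Dnajc9 and Hsp90aa1 lie above 0 in each library and Dnajc7 lies at -1.12 in pro-B.

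The populations were then compared in the cells lowest in cycle genes, those with 2 or fewer S phase, G2 or mitosis UMIs after thinning. They numbered 420 in LMPP, 598 in CLP and 263 in the pro-B library, with median depths of 6465, 6055 and 3082 UMIs. The pro-B cells of this class were thus the shallowest, and ribosomal protein genes took 43.9%, 43.0% and 29.5% of UMIs. The part of depth was not tested. Here the families separated. Hsp90 genes summed to 2189, 2156 and 1341 CPM and Hspd1 with Hspe1 to 646, 617 and 390 CPM, with pro-B lowest. CCT genes summed to 1132, 1046 and 1489 CPM and prefoldins to 1016, 861 and 1379 CPM, with pro-B highest, as in all cells. The log2 ratios of pro-B over CLP were -0.69 (-0.77 to -0.60) for Hsp90, -0.66 (-0.83 to -0.50) for Hsp60 and Hsp10, 0.51 (0.42 to 0.60) for CCT and 0.68 (0.58 to 0.78) for prefoldin. Over all cells the Hsp90 ratio was 0.10 and the Hsp60 and Hsp10 ratio 0.03.

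Single genes also divided, but not always with their family. Hsp90ab1, which gave most of the Hsp90 sum, was at 1764, 1738 and 970 CPM. Hsp90b1 went the other way at 89.6, 106 and 122 CPM, with a log2 ratio of pro-B over CLP of 0.20 (-0.12 to 0.51). Hsp90aa1 was at 335, 312 and 249 CPM in these LMPP, CLP and pro-B cells, a log2 ratio of -0.33 for pro-B over CLP (-0.54 to -0.12) against 0.996 over all cells. Dnajc9 was at 73.9, 93.0 and 76.6 CPM, with an interval of the log2 ratio from -0.68 to 0.10, so that no difference from CLP was detectable. Hspa9 was at 94.3, 89.4 and 48.4 CPM. Against this, Dnajc7 was at 68.2, 126 and 312 CPM, a log2 ratio of 1.31 (1.09 to 1.52), where over all cells it was 0.27. Dnajc21 stood at 15.7, 20.8 and 125 CPM, a log2 ratio of 2.59 (2.16 to 3.03), close to its ratio over all cells. Dnajb11, Dnaja2 and Pfdn4 had log2 ratios of 1.64, 1.37 and 1.67. With Dnajc7 and Dnajc21, these made 5 members called higher in pro-B over CLP in these cells, where 20.7% of all genes were. Dnajc1 and Hspbp1, each at -1.16, were the 2 called lower, where 8.73% of all genes were.

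**Figure D5:**
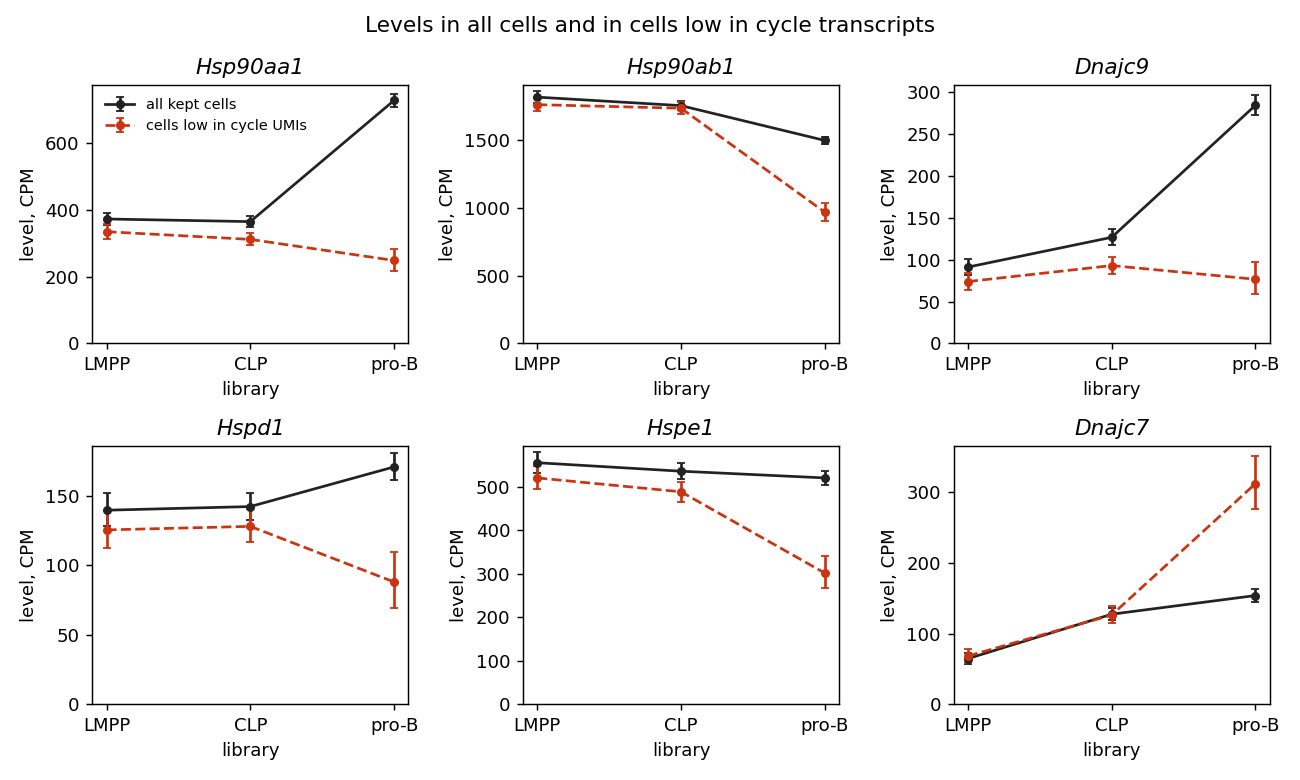
Level in CPM (linear axis from 0) of Hsp90aa1, Hsp90ab1, Dnajc9, Hspd1, Hspe1 and Dnajc7 in the LMPP, CLP and pro-B libraries, for all kept cells (solid) and for cells with 2 or fewer cycle UMIs after thinning (dashed); bars are exact 95% Poisson intervals and lines only join the libraries. Dnajc7 reaches 312 CPM in the pro-B cells low in cycle UMIs and Hsp90ab1 stands at 970.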

How the data were processed

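Bone marrow LMPP, CLP and pro-B cells were profiled as 1 library each. Raw UMI counts were deposited for each gene and barcode, and per the submitters' processing notes the authors used Cell Ranger and mm10. The version, annotation and cell calling were not given in the sources. Of 599, 979 and 1123 barcodes in LMPP, CLP and pro-B, cells needed at least 500 genes and no more than 10% mitochondrial UMIs, so that mitochondrial UMIs removed 20, 31 and 16 barcodes and few genes removed 1 in pro-B. UMIs were summed per library and scaled to CPM. Doublets were scored in each library by scrublet (scanpy), which called 25, 16 and 0 cells, and these stayed in the main values. A caller that marks no cell of 1106 may miss doublets of like cells. Cells were thinned without replacement to 2000 UMIs for shares and classes, leaving out 6, 40 and 36 shallower cells.

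Named genes were the members of every family but the J-proteins with 50 CPM in some library, the 12 J-proteins with the highest level, every member called at least 2-fold, Hspa1a and Hspa1b, and of each partner list the 4 highest genes and those called. Some listed genes that are not members are not reported here. The members, gene lists and this rule were chosen with earlier results of these data known. Gene positions are from GENCODE M21 on GRCm38, where all 87 members were matched by Ensembl ID. Processed pseudogenes of Hspa8, Hsp90ab1 and Hspe1 could take or lend reads. Steps were tested on simulated libraries of 15922 genes: for pro-B over CLP calls were made for 1 of 50 genes at a true 1.5-fold, 50 of 50 at 3-fold and 0 of 2291 unchanged genes. These counts check the steps only. With 1 library per population they cannot give the rate of false calls that differences between animals or droplet runs would cause. The tools were scanpy 1.11.5, pandas 2.3.3, SciPy 1.17.1, NumPy 2.4.6, matplotlib 3.10.9 and Python 3.11.15.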

Additional observations from a re-analysis of the deposited data

How the results depend on the processing

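No paired analysis was possible because each population is 1 library and the labels carry no replicate numbers, and no replicate could be left out. With the total taken without ribosomal and mitochondrial genes, the summed ratio of CLP over LMPP was 0.949, that of pro-B over CLP 1.03, and that of pro-B over LMPP 0.975, which reversed the last. The median over members was then 0.0235 against CLP and 0.0193 against LMPP in pro-B, where it had been 0.34 and 0.36. Over all genes by the same rule, 10 or more UMIs, the medians had been -0.076 and -0.055. The scaling moves all genes by the same amount, so the distance of members from all genes stays. Then 3 members were higher and 2 lower in pro-B over CLP, against 12.3% and 14.4% of all genes. For pro-B over LMPP 4 were higher, against 13.6%. Summed ratios of pro-B over CLP and over LMPP were 1.22 and 1.19 with median-of-ratios scaling, 1.23 and 1.17 with equal weight per cell, and 1.12 and 1.08 in cells low in cycle UMIs, where 2 members were lower in pro-B over CLP, against 8.73% of all genes, and Dnajc9 reversed to -0.28. Without scrublet calls, 1 member was higher in CLP over LMPP, against 4.66% of all genes. Members called lower in pro-B numbered 0 in both comparisons at a minimum of 100 CPM, against 8.55% over CLP and 9.05% over LMPP of all genes, and 3 over LMPP at 20 CPM, against 12.8%. Without cells with 3 or more UMIs of other lineages' markers, which took out 282, 642 and 73 cells, 9 members were higher in each pro-B comparison, against 25.1% of all genes over CLP and 23.4% over LMPP, and Hspa1a in pro-B over LMPP reversed to -0.24, a value of few UMIs. A narrower marker list, chosen after seeing the data, took out 30, 98 and 2 cells and gave 8 higher in each, against 21.8% of all genes. The median for pro-B over LMPP was 0.57 over members with a mean of 50 CPM, also an added choice. Thinned to 3000 UMIs, 11 members in place of 4 were found in at least 50% of pro-B cells. The other 111 recomputed summary values stayed within the set limits. For single genes 847 of 1020 values stayed within the main interval, 171 moved, and the 2 named are the ratios of at least 2-fold that changed sign. Smaller ratios changed sign too: 43 values did in all, and in 18 the main interval did not include 0. Of these 18, 8 were in cells low in cycle UMIs (Hspd1, Hsp90aa1, Dnajc9, Dnajc19 and Pfdn5) and 6 with ribosomal and mitochondrial genes left out (Cct5, Hspd1, Dnajc7, Pfdn5 and Dnajb1). The causes were not tested. Counting limits genes below 50 CPM, and no value carries animal-to-animal error.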
